A study of Mus musculus with 16 samples.

Results

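The hypoxia-inducible factor system of LKR10 cells, a mouse lung adenocarcinoma line, was followed through 8 of its genes, named by symbol, of the 12321 genes in the deposited table. They are the alpha subunits Epas1 and Hif1a, their partner Arnt, the regulators Egln1 and Vhl, and the target genes Vegfa, Ndrg1 and Bnip3. All 8 have a row and all 8 passed the filter on low values. The genes, and the contrast of Epas1 with Hif1a, were chosen by their measured levels in these same 4 groups, so their levels and changes are given as a description and without a p-value. The study compared cells carrying an shRNA against Ankrd35 with cells carrying a control shRNA against GFP, each grown either attached or in suspension, by RNA-seq in 16 libraries. The 4 groups of 4 libraries are 2D shGFP, 2D shAnkrd35, 3D shGFP and 3D shAnkrd35. All cells were infected with pLKO lentivirus, selected with 4 µg/ml puromycin for 48 h and harvested after a further 96 h. The 2D cells grew as a monolayer in DMEM with 10% FBS, and the 3D cells grew in complete DMEM with 0.5% methylcellulose. The labels give 1 cell line, do not say how many hairpins were used against Ankrd35, and give no oxygen level for either growth type. Nothing in them says that the 4 libraries of a group came from separate infections or cultures, so the spread between them may be technical.

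Hypoxia-inducible factors are dimers of an oxygen-regulated alpha subunit and the constant subunit ARNT. With oxygen present, the prolyl hydroxylase EGLN1 marks the alpha subunits and the VHL ubiquitin ligase has them degraded, so most of this control acts on protein and is not visible in RNA. HIF-1 alpha (Hif1a) and HIF-2 alpha (Epas1) share a DNA motif but differ in part of their targets, and both are studied in lung cancer. RNA levels here say nothing of the amount of HIF protein.

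Total depth ran from 13.82 to 28.72 M reads a library. Ankrd35 itself does not settle the hairpin labels. In 2D it was covered by 1 to 7 reads under the shAnkrd35 label against 2 to 7 under shGFP, and in 3D by 9 to 12 reads against 14 to 17. These reads are not corrected for depth. Scaled to the effective size of each library, the means were 0.187 against 0.219 CPM in 2D (exact permutation p = 0.657, two-sided, n = 4 a group). In 3D they were 0.501 against 0.597 CPM (exact permutation p = 0.143, two-sided). The scaled 3D values overlapped, at 0.414 to 0.632 CPM with shAnkrd35 and 0.538 to 0.662 CPM with shGFP. The groups are therefore called by their labels throughout. Of the markers listed for lung adenocarcinoma epithelium, 6 of 11 have a row, with a summed level of 5300 to 8631 CPM (reads scaled to the effective size of each library), and Nkx2-1, Sftpc, Sftpb, Napsa and Cldn4 have none. That sum was 5300 to 5798 CPM in 2D shGFP and 7089 to 8631 in 2D shAnkrd35. It was 6035 to 6221 CPM in 3D shGFP and 6659 to 7243 in 3D shAnkrd35. Of the endothelial markers 2 of 10 have a row (Esam and Vwf, 1.78 to 6.44 CPM together), of the fibroblast markers 5 of 7, and of the macrophage and leukocyte markers 2 of 7. Under the shAnkrd35 label the endothelial sum was 6.08 to 6.44 CPM in 2D and 4.07 to 5.04 CPM in 3D, against 1.78 to 3.19 and 1.98 to 2.35 CPM under shGFP. The fibroblast sum was 31.8 to 34.6 CPM in 2D shGFP, 20.8 to 21.9 in 2D shAnkrd35, 25.3 to 29.0 in 3D shGFP and 12.6 to 48.2 in 3D shAnkrd35. The leukocyte sum was 3.29 to 4.39, 4.19 to 12.3, 5.08 to 6.82 and 2.88 to 16.6 CPM in the same order. Replicate 1 of 2D shAnkrd35 stood apart in Lars2 (1418 CPM, against 197.1 to 468.6 in the other libraries) and in Gm23935 (2109 against 239.1 to 753.1). Mitochondrial genes took 2.89 to 3.26% of the reads in 3D shAnkrd35, 2.35 to 2.62% in 3D shGFP and 1.69 to 2.13% in 2D. The part of these differences in the results was not tested. Libraries also differed in how their values followed the GC content of genes. The slope was between -0.295 and -0.122 log2 units per 10% GC in the 8 3D libraries, between 0.261 and 0.528 in 2D shAnkrd35, and 0.288, -0.100, 0.117 and -0.009 in the 4 libraries of 2D shGFP. For that reason each fold change below is also given, where it matters, with the trend of each library over GC content and gene length removed.

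Promoter sequences give the setting in which HIF dimers meet their genes. The table of RefSeq promoters (build GRCm38.p6) holds 6 of the 8 genes, in 7 windows of 250 bases before the annotated start. Each window was searched on both strands for the core HIF letters ACGTG and GCGTG, read as CACGT and CACGC on the other strand, and CACGTG holds an overlapping match on each strand. A match was found in at least 1 window of 5 of the 6 genes, and of 61 of the 75 genes with a window in the pathway lists used below. By single window, 38.6% of all 32851 such windows in the table hold one. A gene with several windows has more chances of a match, and the share by gene over all genes was not counted. Hif1a is shown as the subunit itself, Vegfa as a target gene that was lower in 2D shAnkrd35, and Bnip3 and Egln1 as target or regulator genes that were not. Ndrg1, a target gene that was lower there too, has no window, and neither has Epas1. The genes shown were picked with these levels known, so nothing is read from a comparison of their windows. Matched letters are in capitals, and bases that GENCODE M21 annotates as exon are left off.
Hif1a, chr12:73907617-73907866, plus strand: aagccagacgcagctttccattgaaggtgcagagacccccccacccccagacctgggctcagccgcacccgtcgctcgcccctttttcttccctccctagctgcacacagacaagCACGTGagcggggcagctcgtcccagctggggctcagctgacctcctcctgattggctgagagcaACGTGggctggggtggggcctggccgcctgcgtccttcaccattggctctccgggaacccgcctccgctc
Bnip3, chr7:138909520-138909756, minus strand: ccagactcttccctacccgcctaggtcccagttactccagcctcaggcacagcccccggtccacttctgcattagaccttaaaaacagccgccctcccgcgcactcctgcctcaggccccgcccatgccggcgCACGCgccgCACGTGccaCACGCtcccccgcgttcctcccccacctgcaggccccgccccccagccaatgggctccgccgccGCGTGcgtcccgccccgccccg
Egln1, chr8:124949325-124949504, minus strand: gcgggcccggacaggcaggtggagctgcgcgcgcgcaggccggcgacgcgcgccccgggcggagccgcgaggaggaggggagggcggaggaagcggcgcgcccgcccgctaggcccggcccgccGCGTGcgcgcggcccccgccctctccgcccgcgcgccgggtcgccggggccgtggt
Vegfa, chr17:46032378-46032627, minus strand: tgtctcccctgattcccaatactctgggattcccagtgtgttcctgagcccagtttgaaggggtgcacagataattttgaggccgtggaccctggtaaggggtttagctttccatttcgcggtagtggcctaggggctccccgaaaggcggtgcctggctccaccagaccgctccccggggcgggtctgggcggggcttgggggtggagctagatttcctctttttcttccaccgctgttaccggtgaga
The Hif1a stretch holds CACGTG, beginning 135 bases before the RefSeq start, and ACGTG at 70 bases. The Bnip3 stretch holds 4 separate sites, of which 1 is CACGTG, between 117 and 35 bases before the start. Egln1 holds GCGTG at 126 bases, and a further ACGTG at 68 bases lies in the exonic part that is not printed. No match lies in the Vegfa window shown, whereas the window of a RefSeq start within the gene holds 2 matches. Arnt holds 1 match, at 29 bases, and Vhl none. A match is a run of letters, not a bound site, and its absence from a window says nothing of the factor.

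Epas1, which encodes HIF-2 alpha, was the member with the widest difference between hairpins. It lies on chromosome 17 (86753700 to 86833410, plus strand, mm10) with 16 exonic blocks. Its 2D levels were 36.7, 39.4, 41.9 and 40.7 CPM with shGFP, against 10.5, 11.1, 8.34 and 10.7 CPM with shAnkrd35. Every 2D library labelled shAnkrd35 was below every 2D shGFP library. In 3D the values were 43.7, 44.4, 41.7 and 41.6 CPM with shGFP and 18.9, 19.9, 19.6 and 20.1 CPM with shAnkrd35, again without overlap. The level was thus 3.91-fold lower with the shAnkrd35 label in 2D (log2 fold change -1.96, SE 0.07) and 2.18-fold lower in 3D (-1.12, SE 0.07). With shGFP the 2D and 3D ranges overlapped (0.11, SE 0.07), so the 2 highest groups were not separated. With shAnkrd35 the 3D libraries were all above the 2D ones (1.93-fold, log2 fold change 0.95, SE 0.07). The hairpin difference was smaller in 3D than in 2D by 0.84 log2 units (SE 0.11). With the GC and length trend removed, the 3D against 2D change was 0.21 (SE 0.07) with shGFP and 1.07 with shAnkrd35, and the hairpin differences were -2.03 in 2D and -1.17 in 3D. In these bulk libraries fewer cells of a kind and less RNA per cell cannot be told apart.

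**Figure D1:**
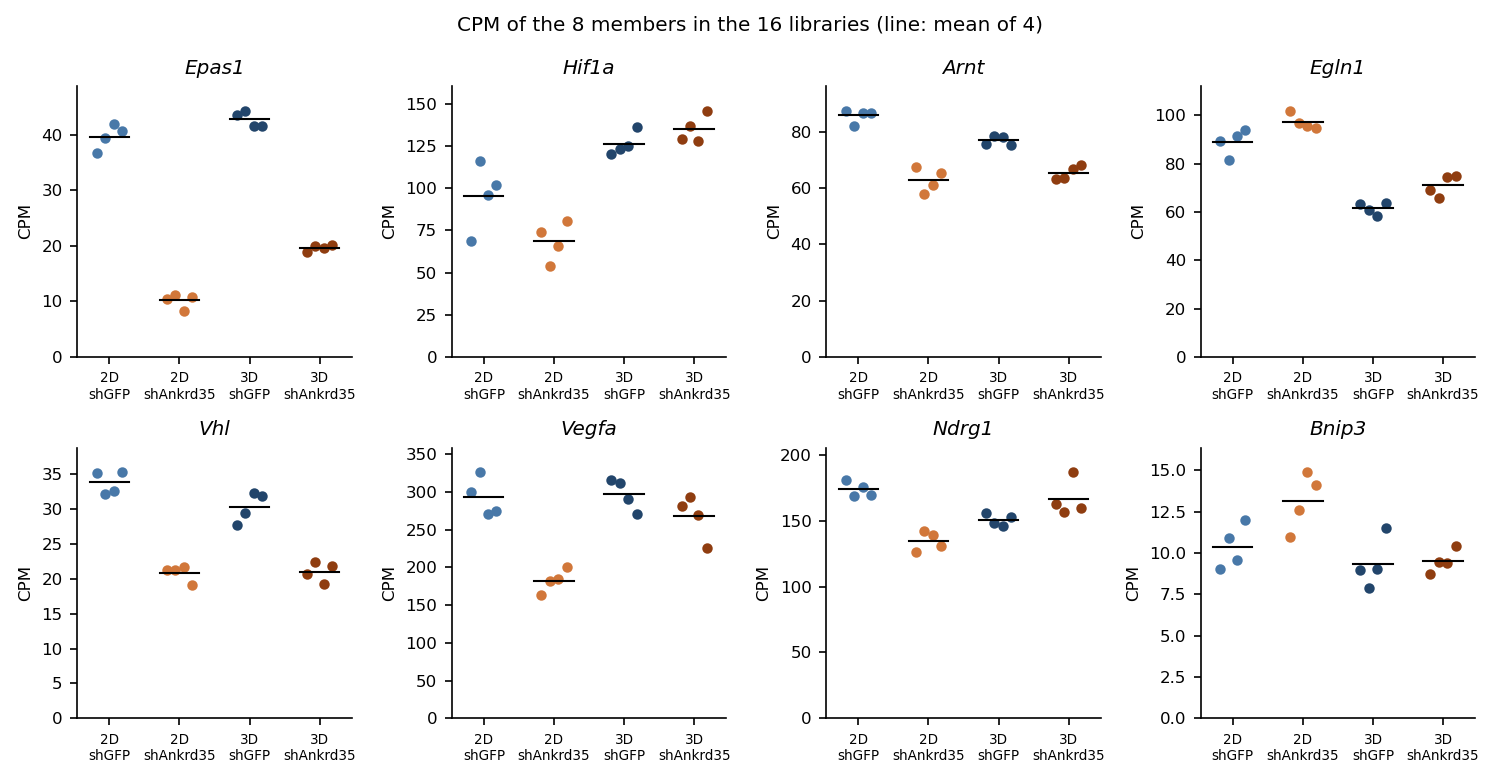
Level of each of the 8 genes (y axis, CPM, from 0) in the 16 libraries, one point a library and a line for the mean of 4, by group on the x axis. Epas1 in 2D shAnkrd35 sits at 8.34 to 11.1 CPM, below all other groups, and Hif1a sits lowest in the 2D libraries.

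Hif1a, encoding HIF-1 alpha, shared part of the Epas1 changes as deposited. Both had lower means with shAnkrd35 in 2D (log2 fold change -0.47 for Hif1a and -1.96 for Epas1). Both rose from 2D to 3D with shAnkrd35 (0.99 and 0.95). Between hairpins in 3D they parted (0.10 and -1.12). Hif1a spans chromosome 12 from 73901375 to 73947530 on the plus strand. Its 2D levels were 68.8, 116, 95.7 and 102 CPM with shGFP and 74.1, 53.9, 65.7 and 80.8 CPM with shAnkrd35, and the groups overlapped. The 3D levels were 120, 123, 125 and 136 CPM with shGFP and 129, 137, 128 and 146 CPM with shAnkrd35, which overlapped as well. From high to low the order was 3D shAnkrd35 (135 ± 8.34, SD, n = 4), 3D shGFP (126 ± 6.93), 2D shGFP (95.6 ± 19.8) and 2D shAnkrd35 (68.6 ± 11.6). All 3D libraries were above all 2D libraries. Between hairpins the log2 fold change was -0.47 (SE 0.14) in 2D and 0.10 (SE 0.14) in 3D, and from 2D to 3D it was 0.42 with shGFP and 0.99 with shAnkrd35 (SE 0.14 each).

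The Hif1a values moved with the GC trend of the libraries. The gene has a GC content of 41.3%, against a median of 49.7% over all tested genes, and 10.3% of tested genes have a lower one. In 2D shGFP the library with the steepest slope (0.288) had the lowest Hif1a level (68.8 CPM), and the library with the lowest slope (-0.100) had the highest (116 CPM). In 2D shAnkrd35 the library with the steepest slope (0.528) had the lowest level too (53.9 CPM). With the GC and length trend removed the hairpin difference was -0.13 (SE 0.06) in 2D and 0.18 (SE 0.06) in 3D. On that scale 3D against 2D was -0.00 (SE 0.06) with shGFP and 0.31 (SE 0.06) with shAnkrd35. The difference between the hairpin effects in 3D and 2D was 0.57 (SE 0.19) as deposited, 0.46 to 0.72 with any 1 of the 16 libraries left out, and 0.31 (SE 0.08) with the trend removed.

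The balance of both alpha subunits can be read per kilobase of annotated exon (5590 bases for Epas1, 5896 for Hif1a). On this scale Hif1a exceeded Epas1 in all 16 libraries. The Hif1a to Epas1 ratio in single libraries was 1.78, 2.79, 2.16 and 2.37 for shGFP cells in 2D, against 6.70, 4.61, 7.47 and 7.16 for shAnkrd35 cells. In 3D it was 2.60, 2.62, 2.84 and 3.09 with shGFP and 6.49, 6.53, 6.22 and 6.92 with shAnkrd35. Every library labelled shAnkrd35 had a higher ratio than every shGFP library. As log2 levels, not corrected for length, Epas1 minus Hif1a averaged -1.24 ± 0.27 (SD, n = 4) for shGFP cells and -2.74 ± 0.32 for shAnkrd35 cells grown in 2D. Grown in 3D, the same cells gave -1.55 ± 0.12 and -2.78 ± 0.06. The shAnkrd35 means of the 2 growth types thus lay within the SD of each other as deposited, but not with the GC and length trend removed. On that scale Epas1 minus Hif1a was -1.37 ± 0.04 in 2D shGFP, -3.27 ± 0.23 in 2D shAnkrd35, -1.16 ± 0.09 in 3D shGFP and -2.51 ± 0.04 in 3D shAnkrd35. The shAnkrd35 libraries then did not overlap between growth types, with every 2D library below the 3D ones (-2.56 to -2.47), and all lay below the shGFP libraries (-1.42 to -1.33 in 2D and -1.28 to -1.07 in 3D). The pair was named with these values known, so the contrast carries no test.

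**Figure D2:**
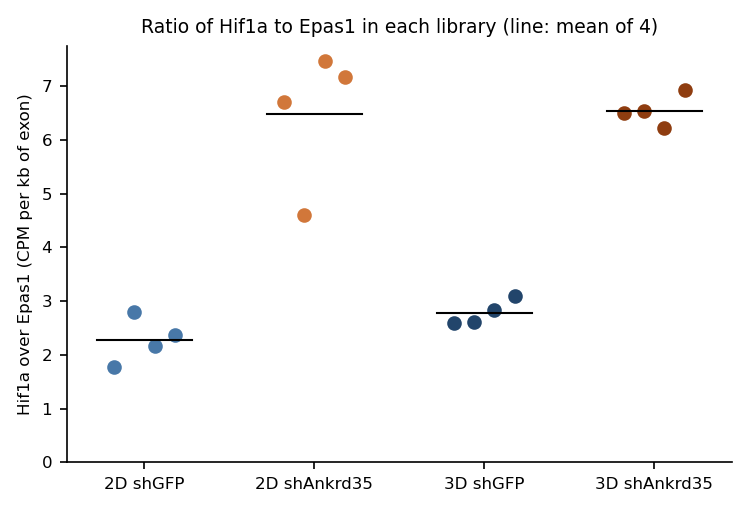
Ratio of Hif1a to Epas1 (y axis, both in CPM per kilobase of exon, from 0) in each library, with a line for the mean of 4. The shGFP libraries sit between 1.78 and 3.09 and the shAnkrd35 libraries between 4.61 and 7.47.

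Arnt, the shared partner of the alpha subunits (chromosome 3, 95434388 to 95497240, plus strand), was lower with the shAnkrd35 label in both growth types. Its 2D levels were 87.5, 82.1, 86.8 and 86.8 CPM with shGFP and 67.5, 58.0, 61.2 and 65.3 CPM with shAnkrd35. The 3D levels were 75.6, 78.6, 78.1 and 75.4 CPM with shGFP and 63.2, 63.7, 66.7 and 68.0 CPM with shAnkrd35. Neither pair of groups overlapped, and the log2 fold changes were -0.45 in 2D and -0.23 in 3D (SE 0.05 each). Arnt was slightly lower in 3D than in 2D with shGFP (-0.16, SE 0.05), and with shAnkrd35 the groups overlapped (0.06, SE 0.05). The difference of 0.21 (SE 0.07) between the hairpin effects came to 0.11 (SE 0.06) once the GC and length trend was removed.

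The rest of the subunit and coactivator list adds Hif3a, which encodes the third alpha subunit and has splice forms that restrain the others. Hif3a was the least abundant of the alpha subunits per kilobase of exon (group means of 0.104 to 0.644 CPM per kilobase) and differed between hairpins in the direction opposite to Epas1. The 2D libraries held 0.725, 0.681, 0.428 and 0.963 CPM with shGFP and 2.39, 2.14, 2.26 and 2.08 CPM with shAnkrd35. In 3D it was at 0.611, 0.896, 0.887 and 0.471 CPM with shGFP and 5.09, 4.14, 4.00 and 4.05 CPM with shAnkrd35. The groups did not overlap, and by limma it was higher with the shAnkrd35 label by 1.59 log2 units in 2D (SE 0.22, adjusted p = 1.39e-05) and by 2.49 in 3D (SE 0.22, adjusted p = 2.39e-07). Arnt2, an ARNT paralog, averaged 2.59 ± 0.279 CPM with shGFP against 3.00 ± 0.568 CPM with shAnkrd35 for 2D cells, and 1.07 ± 0.273 against 2.39 ± 0.399 CPM for 3D cells (SD, n = 4). It was higher with shAnkrd35 in 3D (1.11, SE 0.19, limma adjusted p = 0.000241) and fell from 2D to 3D with shGFP (-1.23, adjusted p = 2.18e-05). Cited2, which competes with HIF for its coactivators, rose with the shAnkrd35 label in 2D and in 3D (0.41 and 0.34, SE 0.05 each, limma adjusted p = 4.44e-06 and 6.66e-05), and its 2D value came to 0.20 (SE 0.04) with the GC and length trend removed. Crebbp and Ep300 encode those coactivators. Crebbp was lower with shAnkrd35 in 2D (-0.55, adjusted p = 3.67e-05) and not called in 3D (0.10, adjusted p = 0.388). Ep300 was lower by a small amount in 2D as deposited (-0.19, adjusted p = 0.00978), but not called with the GC and length trend removed (-0.07, adjusted p = 0.109) or with only the 8 libraries compared in the fit. From 2D to 3D with shAnkrd35 it rose by 0.32 (adjusted p = 8.78e-05). Of the 8 genes on this list, 7 had a hairpin effect that was higher in 3D than in 2D and none the reverse, where 17.1% of all genes were called higher and 18.6% lower. That count includes Epas1, Hif1a and Arnt, and without them it was 4 of 5. After removal of the GC and length trend 5 of the 8 were called higher. Hif1a lost this call under 10 of 27 alternatives and Hif3a under 8 of 26. Over the 87 tested genes of all 8 pathway lists followed here, 20 were called higher and 19 lower, so the other lists did not share this direction.

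Egln1, the main oxygen-sensing hydroxylase of the alpha subunits and itself a HIF target, tracked growth type more than hairpin. Its gene lies at chromosome 8, 124908587 to 124949324, on the minus strand. The 2D levels were 89.4, 81.6, 91.5 and 94.1 CPM with shGFP and 102, 96.7, 95.8 and 94.8 CPM with shAnkrd35. In 3D they were 63.5, 60.9, 58.3 and 63.8 CPM with shGFP and 69.2, 65.7, 74.7 and 75.1 CPM with shAnkrd35. Every 3D library was below every 2D library, with log2 fold changes of -0.53 (SE 0.05) under shGFP and -0.45 (SE 0.05) under shAnkrd35. The shAnkrd35 libraries were just above the shGFP ones in each growth type, by 0.13 in 2D and by 0.21 in 3D (SE 0.05 each). Removing the GC and length trend left -0.02 and 0.14, and it brought the growth change with shAnkrd35 to -0.27 (SE 0.06).

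Vhl, the substrate receptor of the ligase that degrades hydroxylated alpha subunits, tracked the hairpin in both growth types. It spans chromosome 6 from 113623959 to 113631633 on the plus strand. In 2D it was at 35.2, 32.2, 32.6 and 35.3 CPM with shGFP and 21.3, 21.3, 21.7 and 19.1 CPM with shAnkrd35. In 3D it was at 27.7, 29.4, 32.3 and 31.9 CPM with shGFP and 20.7, 22.4, 19.3 and 21.8 CPM with shAnkrd35. No shAnkrd35 library reached the lowest shGFP library of its growth type, and the log2 fold changes were -0.70 in 2D and -0.52 in 3D (SE 0.07 each). From 2D to 3D the groups overlapped under either hairpin (-0.16 with shGFP and 0.01 with shAnkrd35, SE 0.07 each). With any 1 of the 16 libraries left out, the shGFP value ran from -0.19 to -0.12.

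Of the oxygen-sensing and turnover genes, 12 listed with Egln1 and Vhl included, 4 were called higher and 4 lower with shAnkrd35 in 2D, and 2 and 2 in 3D. Without Egln1 and Vhl, 4 of 10 were called higher and 3 lower in 2D, and 1 and 1 in 3D. Among all tested genes 29.0% were called higher and 28.8% lower in 2D, and 15.0% and 14.6% in 3D. Egln3, a hydroxylase known as a HIF target, averaged 31.2 ± 1.60 CPM with shGFP against 45.4 ± 2.23 CPM with shAnkrd35 for 2D cells, and 35.3 ± 2.80 against 29.9 ± 1.60 CPM for 3D cells (SD, n = 4). Its hairpin difference was 0.54 in 2D (SE 0.06, limma adjusted p = 2.54e-06) and -0.24 in 3D (SE 0.06, adjusted p = 0.00826), and the 2 effects differed (-0.78, SE 0.09, adjusted p = 1.01e-05). Egln2, the other hydroxylase, had means of 95.0 to 99.3 CPM and was not called in any contrast as deposited. Its GC content is 62.2%, and with the GC and length trend removed it was called higher in 3D than in 2D (0.15 with shGFP, and 0.27 with shAnkrd35, adjusted p = 0.000653). Hif1an, the asparagine hydroxylase that blocks coactivator binding, was higher with shAnkrd35 in 3D (0.28, adjusted p = 0.0113). Its 2D value (0.19, adjusted p = 0.0425) lost the call under 11 of 28 alternatives. These were the replicate block, the fit of only the 8 libraries compared, limma without trend, leaving out both 2D libraries numbered 1, and leaving out 1 of replicates 1, 2 and 4 of 2D shGFP, 1 and 2 of 2D shAnkrd35, 4 of 3D shGFP and 1 of 3D shAnkrd35 (0.11 to 0.23 over the 16 libraries). Siah2 and Siah1a encode ligases that target the EGLN enzymes. Siah2 fell from 16.8 ± 0.989 CPM in 2D shGFP to 6.72 ± 0.373 in 3D shGFP (-1.31, SE 0.09, adjusted p = 1.89e-09), and was 9.92 ± 0.972 CPM in 2D shAnkrd35 (-0.76 against 2D shGFP, adjusted p = 3.78e-06). Siah1a fell with shAnkrd35 in 2D (-0.39, adjusted p = 0.01) and from 2D to 3D with shGFP (-0.33, adjusted p = 0.0201). The first call was lost with the replicate block and the GC and length trend removed together (-0.29). The second was lost without replicate 2 of 2D shGFP (-0.27) or of 3D shGFP (-0.28), and its value was -0.74 with the trend alone removed. Among partners of VHL, Rbx1 rose with shAnkrd35 in 2D (0.32, adjusted p = 0.0153), and its 3D value of -0.18 was not called. The 2D call was lost without replicate 2 or 3 of 2D shAnkrd35 (0.27 each) and with only the 8 libraries compared, and the value was 0.56 with the GC and length trend removed. Eloc was called lower with shAnkrd35 in 2D as deposited (-0.44, adjusted p = 0.00766), but not with that trend removed (-0.01, adjusted p = 0.918) or with only the 8 libraries compared. Eloc was also higher in 3D than in 2D as deposited (0.32 with shGFP, adjusted p = 0.0333, and 0.56 with shAnkrd35, adjusted p = 0.00089), but with the GC and length trend removed both values turned to -0.42 and -0.49. The shGFP call was also lost with only the 8 libraries compared and when 1 of replicates 1 and 3 of 2D shGFP or any of 3D shGFP was left out (0.15 without replicate 1 of 2D shGFP, 0.30 to 0.33 without the others). Its GC content is 38.2%.

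Vegfa, which encodes the main vessel growth factor induced by HIF, was the most abundant of the 8 genes per length of exon, at 38.0 to 76.1 CPM per kilobase over the 16 libraries. It lies on chromosome 17 (46016993 to 46032369, minus strand). Its levels in 2D were 300, 326, 270 and 275 CPM with shGFP and 163, 182, 184 and 200 CPM with shAnkrd35. The levels in 3D were 316, 312, 290 and 270 CPM with shGFP and 281, 293, 269 and 226 CPM with shAnkrd35. The hairpin groups were apart in 2D (-0.68, SE 0.08, 1.61-fold lower) and overlapped in 3D (-0.16, SE 0.08). Between 2D and 3D, Vegfa levels overlapped with shGFP (0.02, SE 0.08), and the gene was 1.47-fold higher with shAnkrd35 (0.55, SE 0.08). The hairpin effect in 3D exceeded that in 2D by 0.53 log2 units (SE 0.12).

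Ndrg1, a stress-response gene induced by hypoxia, was also lower with the shAnkrd35 label in 2D and not in 3D. It spans chromosome 15 from 66929318 to 66969640 on the minus strand. In 2D it was at 181, 169, 176 and 170 CPM with shGFP and 126, 142, 139 and 131 CPM with shAnkrd35, with no overlap. In 3D it was at 156, 148, 146 and 153 CPM with shGFP and 163, 157, 187 and 160 CPM with shAnkrd35, where the shAnkrd35 libraries were the higher. The log2 fold change between hairpins was -0.37 in 2D and 0.15 in 3D (SE 0.05 each), 0.51 apart (SE 0.08). The growth change was -0.21 with shGFP and 0.31 with shAnkrd35 (SE 0.05 each). The shGFP value came to -0.13 (SE 0.06) with the GC and length trend removed.

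Bnip3, a receptor on the outer mitochondrial membrane that directs mitophagy, was the least abundant of the 3 targets per length of exon, at 3.49 to 6.59 CPM per kilobase. It lies on chromosome 7 (138890836 to 138909519, minus strand). Its 2D levels were 9.02, 10.9, 9.61 and 12.0 CPM with shGFP and 11.0, 12.6, 14.9 and 14.1 CPM with shAnkrd35, and the groups overlapped. Its 3D levels were 8.96, 7.91, 9.03 and 11.5 CPM with shGFP and 8.76, 9.44, 9.40 and 10.4 CPM with shAnkrd35, also overlapping. Between hairpins the log2 fold change was 0.34 in 2D and 0.04 in 3D (SE 0.12 each). With any 1 of the 16 libraries left out the 2D value ran from 0.27 to 0.42, and it was 0.52 (SE 0.10) with the GC and length trend removed. The growth change was -0.15 with shGFP and -0.46 with shAnkrd35 (SE 0.12 each). The GC content of Bnip3 is 41.6%, and with the trend removed the growth changes came to -0.65 and -1.02 (SE 0.10 each). An antisense gene and a processed pseudogene are annotated on the opposite strand within Bnip3, and genes on the opposite strand also overlap Hif1a and Ndrg1. On the same strand the protein-coding Gm49321 (73937653 to 73968375) overlaps Hif1a, the unclassified gene AC096777.1 lies within Epas1, and the processed pseudogene Gm42672 lies within Arnt. None of them has a row. Neither the counting program nor its use of strand is given in these sources, so reads of the overlapping genes cannot be told apart from those of the members.

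**Figure D3:**
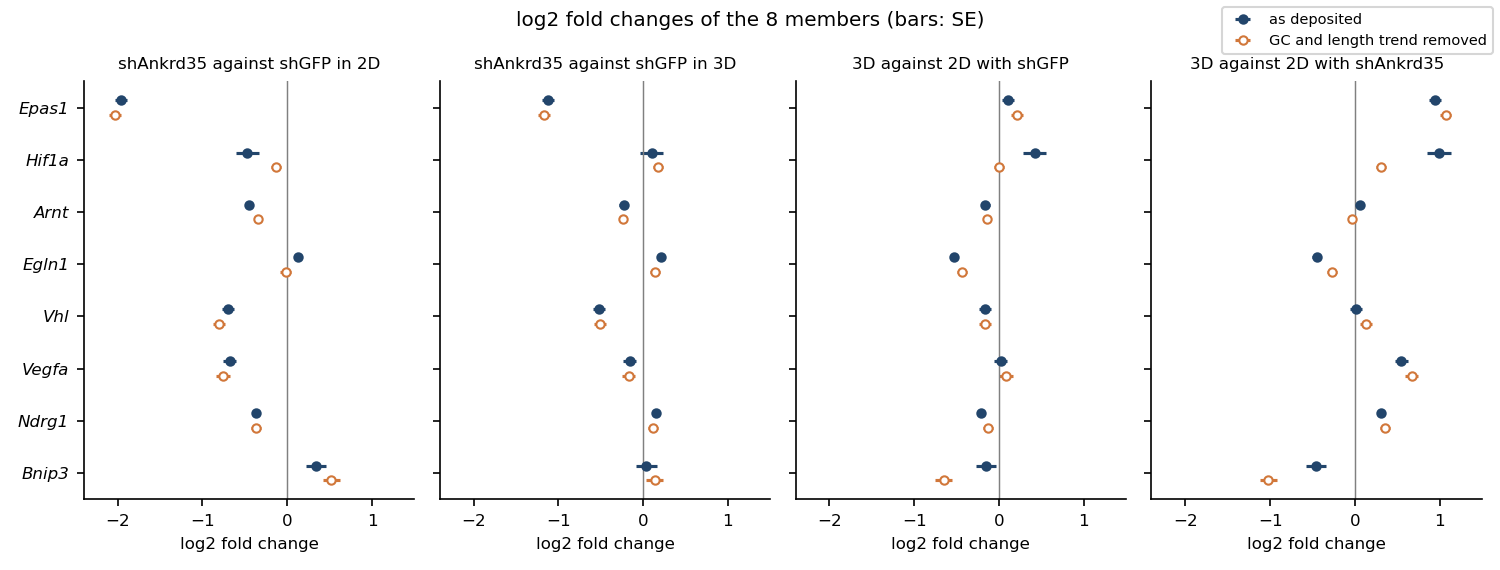
log2 fold change with its SE (x axis) of the 8 genes in the 4 pairwise contrasts, as deposited (filled) and with the GC and length trend of each library removed (open). Epas1 stands at -1.96 and -1.12 between hairpins in 2D and 3D, and Hif1a moves from 0.99 to 0.31 in 3D against 2D with shAnkrd35 when the trend is removed.

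Counted over the 8 genes, 1 was called higher and 6 lower with the shAnkrd35 label in 2D, a contrast in which 57.9% of the 12320 tested genes were called. A call is a limma p-value below 0.05 after Benjamini-Hochberg adjustment over all tested genes. In 3D 1 was called higher and 3 lower, against 29.7% of all genes. From 2D to 3D, 1 was called higher and 4 lower with shGFP, against 67.2% of all genes, and 4 higher and 2 lower with shAnkrd35, against 70.4%. Of all genes 17.1% had a hairpin effect called higher in 3D than in 2D and 18.6% lower, 35.8% together. The difference of hairpin effects was called for 5 genes, each with the 3D effect above the 2D effect. Hairpin groups did not overlap for 6 of the 8 genes in 2D and 5 in 3D, where 39.8% and 38.2% of all genes did not. Growth groups did not overlap for 4 of the 8 with shGFP and 6 with shAnkrd35, where 64.9% and 59.2% of all genes did not. These counts describe genes chosen with the values known, carry no test, and nothing is read from them. The 2 hairpin contrasts take their fold changes from separate libraries, whereas each shares a group with both growth contrasts. SE and calls rest on 1 spread estimate per gene, shared by all 16 libraries. The median SD over tested genes was 0.105 log2 units in 2D shGFP, 0.143 in 2D shAnkrd35, 0.070 in 3D shGFP and 0.096 in 3D shAnkrd35. With only the 8 libraries compared in the fit, 5901 genes were called for the hairpin in 2D and 5088 in 3D. The shares called are therefore not compared between 2D and 3D.

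Around the 8 genes, 99 pathway genes in 8 lists were followed, of which 87 were tested, 79 of them outside the 8. Of the 87, 31 were called higher and 29 lower with the shAnkrd35 label in 2D, and 28 higher and 17 lower in 3D. In 3D against 2D 26 were higher and 41 lower with shGFP, and 24 and 41 with shAnkrd35. The medians over all tested genes in these 4 contrasts were 0.01, -0.00, 0.03 and -0.02. The lists below were read by such counts alone, beside the share of all genes called higher (29.0% in 2D, 15.0% in 3D) and lower (28.8% and 14.6%) between hairpins.

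HIF targets of glucose metabolism were higher with the shAnkrd35 label more often than lower, and lower in 3D than in 2D. Of the 19 tested, 9 were called higher and 3 lower with shAnkrd35 in 2D (median 0.15), and 13 higher and 2 lower in 3D (median 0.23). Removal of the GC and length trend gave counts of 9 and 2 in 2D (median 0.07), and 12 and 2 in 3D (median 0.20). From 2D to 3D, 2 were higher and 13 lower with shGFP (median -0.30), and none higher and 14 lower with shAnkrd35 (median -0.26). Among all tested genes 35.2% were called higher and 32.1% lower in the first of these growth contrasts, and 34.4% and 36.0% in the second. The glycolytic enzyme gene Pgam1 averaged 209 ± 10.8 CPM against 344 ± 41.9 CPM with shAnkrd35 among 2D cells (0.71, SE 0.07, limma adjusted p = 4.41e-07), and it was also higher in 3D (0.37, adjusted p = 0.000818). Tpi1, the triose phosphate isomerase gene, was higher by 0.51 and 0.28 (adjusted p = 2.33e-07 and 0.000318), and its 2D value was 0.33 with the GC and length trend removed. Ldha, which encodes a subunit of lactate dehydrogenase, was higher by 0.47 and 0.21 (adjusted p = 5.73e-07 and 0.00289), and the glycogen synthase gene Gys1 by 0.44 and 0.39 (adjusted p = 2.56e-06 and 2.32e-05). The glucose transporter gene Slc2a1 went the other way, from 119 ± 2.61 CPM in 2D shGFP to 89.6 ± 3.94 in 2D shAnkrd35 (-0.41, SE 0.04, adjusted p = 4.27e-07), and it was lower in 3D too (-0.49, adjusted p = 1.36e-07). Hk2, encoding a hexokinase, fell from 123 ± 6.75 CPM in 2D to 55.1 ± 1.34 in 3D with shGFP (-1.15, SE 0.09, adjusted p = 8.29e-09), and was higher with shAnkrd35 than with shGFP in 3D (0.69, adjusted p = 1.94e-05). The phosphofructokinase gene Pfkp fell by 1.19 from 2D to 3D with shGFP and by 0.95 with shAnkrd35 (adjusted p = 2.36e-13 and 8.24e-12). Pfkfb3 fell by 0.87 and 0.66 (adjusted p = 3.48e-07 and 8.67e-06), and Aldoc by 0.43 and 0.90 (adjusted p = 4.11e-05 and 9.28e-09). With the GC and length trend removed, 3 of the 19 genes were called higher and 13 lower in 3D with shGFP, and 3 and 12 with shAnkrd35.

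HIF targets outside glucose metabolism went both ways. Of 29 tested, 9 were called higher and 15 lower with shAnkrd35 in 2D (median -0.13), and 4 higher and 9 lower in 3D (median -0.00). Without Vegfa, Ndrg1 and Bnip3, 8 of 26 were called higher and 13 lower in 2D (median -0.08), and 4 and 9 in 3D. Among all tested genes 29.0% were called higher and 28.8% lower in 2D, and 15.0% and 14.6% in 3D. From 2D to 3D 9 of the 29 were higher and 13 lower with shGFP, and 7 and 14 with shAnkrd35. Without Vegfa, Ndrg1 and Bnip3 these counts were 9 and 12, and 5 and 13. Among all tested genes 35.2% were called higher and 32.1% lower with shGFP, and 34.4% and 36.0% with shAnkrd35. Ero1l, which encodes an oxidase of the endoplasmic reticulum, had 2D levels of 206, 242, 224 and 221 CPM with shGFP and 96.2, 79.3, 78.8 and 86.2 CPM with shAnkrd35. In 3D it was at 56.2, 54.7, 55.6 and 59.2 CPM with shGFP and 60.0, 66.9, 59.8 and 69.4 CPM with shAnkrd35. It was lower with shAnkrd35 in 2D (-1.39, SE 0.07, limma adjusted p = 1.01e-10), was not called in 3D (0.18, adjusted p = 0.0562), and fell 3.96-fold from 2D to 3D with shGFP (-1.98, adjusted p = 1.57e-13). Its 3D levels did not overlap between hairpins, with every shAnkrd35 library the higher. The 3D hairpin difference ran from 0.14 to 0.26 over the alternatives and was called under 10 of 28. These included removal of the GC and length trend (0.26), centring on library medians and only the 8 libraries compared in the fit.

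Plod2, a collagen lysyl hydroxylase gene, was lower with the shAnkrd35 label in both growth types. Its 2D levels were 49.9, 65.8, 50.9 and 58.1 CPM with shGFP and 21.5, 17.7, 20.9 and 24.6 CPM with shAnkrd35. Its 3D levels were 68.2, 63.1, 64.8 and 67.7 CPM against 30.4, 29.2, 27.1 and 29.1 CPM. The groups did not overlap between hairpins (-1.41 in 2D and -1.19 in 3D, SE 0.09 each, limma adjusted p = 3.05e-09 and 5.35e-08). Its rise from 2D to 3D (0.24 with shGFP and 0.46 with shAnkrd35) came to -0.06 and -0.02 with the GC and length trend removed, and neither was called. The shGFP call was also lost by centring on library medians (0.16) and without replicate 1 or 3 of 2D shGFP (0.19 each) or replicate 1 or 4 of 3D shGFP (0.22 and 0.23). The collagen prolyl hydroxylase gene P4ha1 fell from 135 ± 3.51 CPM in 2D to 64.4 ± 1.40 in 3D with shGFP (-1.06, SE 0.05, adjusted p = 2.49e-12) and was lower with shAnkrd35 in 2D (-0.39) and in 3D (-0.24, adjusted p = 2.22e-06 and 0.000603). Stc2, encoding the secreted protein stanniocalcin, was 2.31-fold lower with shAnkrd35 in 3D (-1.19, SE 0.11, adjusted p = 5.7e-07). In 2D its value was -0.35 (adjusted p = 0.0143), and it was -0.23 and not called without replicate 1 of 2D shGFP. Angptl4, a regulator of lipoprotein lipase, rose from 2D to 3D by 0.96 with shGFP and 0.99 with shAnkrd35 (adjusted p = 7.12e-07 and 6.19e-07). Car12, encoding a carbonic anhydrase, had opposite hairpin differences, 0.58 in 2D and -0.82 in 3D (SE 0.16 each, adjusted p = 0.00477 and 0.000801), at levels of 1.74 to 3.12 CPM.

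**Figure D4:**
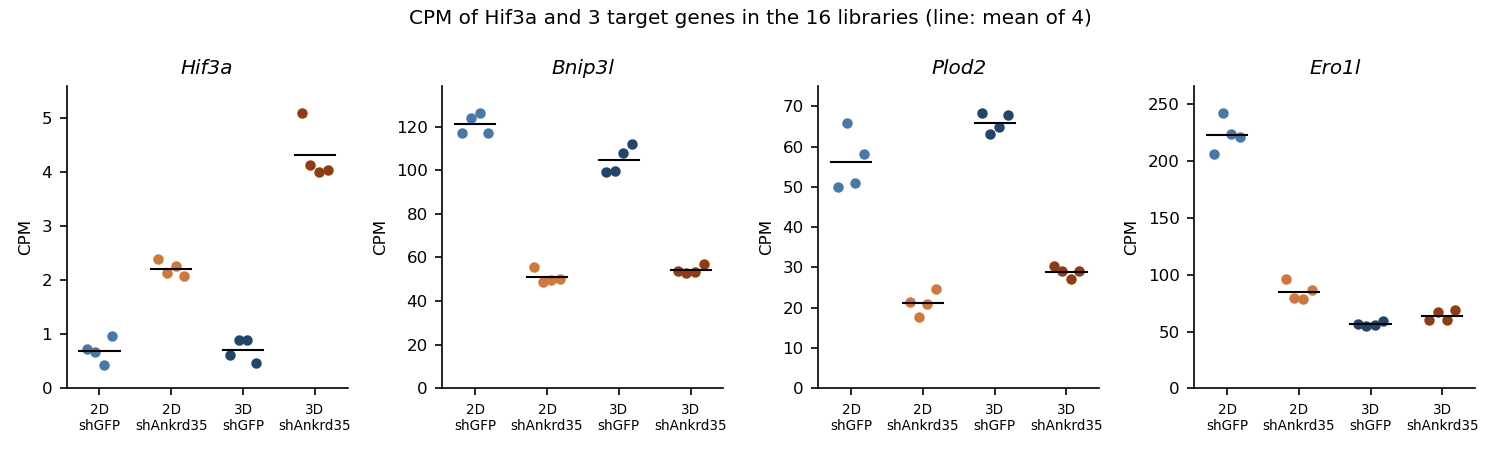
Level (y axis, CPM, from 0) of Hif3a, Bnip3l, Plod2 and Ero1l in the 16 libraries, with a line for the mean of 4. Hif3a is highest in the shAnkrd35 groups, Bnip3l and Plod2 are lower in them, and Ero1l is highest in 2D shGFP at 206 to 242 CPM.

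Bnip3l, the paralog of Bnip3 and also a mitophagy receptor, was more abundant than Bnip3 and differed between hairpins in the opposite direction in 2D. The 2D libraries held 117, 124, 126 and 117 CPM with shGFP and 55.5, 48.6, 49.8 and 50.0 CPM with shAnkrd35. The 3D libraries held 99.0, 99.8, 108 and 112 CPM against 53.6, 52.8, 53.5 and 56.8 CPM. No shAnkrd35 library overlapped a shGFP library (-1.25 in 2D and -0.95 in 3D, SE 0.05 each, limma adjusted p = 2.41e-11 and 1.48e-09). Per kilobase of exon, 2D shGFP cells had 31.3 CPM of Bnip3l and 4.58 CPM of Bnip3. Among the other mitophagy genes, Fundc1 was higher in 3D as deposited (0.72 with shGFP, adjusted p = 1.39e-05, and 0.51 with shAnkrd35, adjusted p = 0.000374). Its GC content is 38.8%, and the values came to -0.00 and -0.45 with the GC and length trend removed. Pink1, the kinase gene of the other mitophagy route, was lower in 3D with shGFP (-0.33, adjusted p = 0.000179), and the autophagy gene Becn1 was higher with shAnkrd35 in 2D (0.19, adjusted p = 0.0029, and 0.37 with the trend removed).

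Of 8 targets listed for a known preference for HIF-2, 5 were tested, and Cybrd1, Pou5f1 and Epo have no row. Of the 5, 1 was called higher and 1 lower with shAnkrd35 in 2D, and 2 higher and none lower in 3D. Among all tested genes 29.0% were called higher and 28.8% lower in 2D, and 15.0% and 14.6% in 3D. With so few genes, nothing is read from these counts. Tgfa, encoding an EGF receptor ligand, was lower with shAnkrd35 in 2D (66.7 ± 4.41 against 49.6 ± 3.71 CPM, -0.43, SE 0.06, limma adjusted p = 1.41e-05) and at 0.02 in 3D (adjusted p = 0.866). Ccnd1, the cyclin D1 gene, fell from 581 ± 33.0 CPM in 2D to 223 ± 9.26 in 3D with shGFP (-1.38, SE 0.05, adjusted p = 4.44e-13), and was higher with shAnkrd35 in 3D (0.25, adjusted p = 0.00158). Angpt2, the angiopoietin 2 gene, was at 0.798 ± 0.209 CPM in 2D shGFP and 7.09 ± 0.724 in 3D shGFP (3.04, SE 0.17, adjusted p = 8.62e-11). It was higher with shAnkrd35 in 2D (1.52, adjusted p = 1.43e-06) and at -0.40 in 3D (adjusted p = 0.088). The iron transporter gene Slc11a2 was higher with shAnkrd35 in 3D by 0.18 (adjusted p = 0.00775), and the iron exporter gene Slc40a1 was not called between hairpins as deposited. Once the GC and length trend was removed, the 2D value of Slc40a1 went from -0.02 to 0.35 and was called.

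Relatives of Vegfa and Ndrg1 went both ways. Vegfb was higher with the shAnkrd35 label in 2D (66.4 ± 2.38 against 106 ± 9.64 CPM, 0.67, SE 0.07, limma adjusted p = 5.66e-07) and in 3D (0.32, adjusted p = 0.00215). Vegfc was higher in 2D (0.31, adjusted p = 0.00982). Pgf, the placental growth factor gene, was lower in 3D with shAnkrd35 (-0.55, adjusted p = 9.77e-05), and fell from 2D to 3D by 0.96 and 1.34 (adjusted p = 3.65e-08 and 7.92e-10). Vegfd was higher in 3D than in 2D with both hairpins (0.82 and 0.93, adjusted p = 0.00169 and 0.000569). Of the receptors, Flt1 rose from 2D to 3D by 0.97 with shGFP and 0.77 with shAnkrd35 (adjusted p = 3.4e-09 and 7.93e-08), and Flt4 was higher with shAnkrd35 in 2D (1.02) and 3D (0.72, adjusted p = 6.79e-06 and 0.000497). Ndrg2 was higher with shAnkrd35 in 2D (28.7 ± 0.924 against 49.0 ± 1.74 CPM, 0.77, SE 0.04, adjusted p = 5.09e-10), in 3D (0.59, adjusted p = 2.87e-08), and in 3D against 2D (1.34 with shGFP, adjusted p = 7.86e-14). Ndrg3 was not called between hairpins as deposited, but its 2D value of 0.08 came to 0.23 and was called with the GC and length trend removed. Ndrg4, at 1.68 to 5.25 CPM, fell from 2D to 3D with shGFP (-1.51, adjusted p = 2.38e-08).

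**Figure D5:**
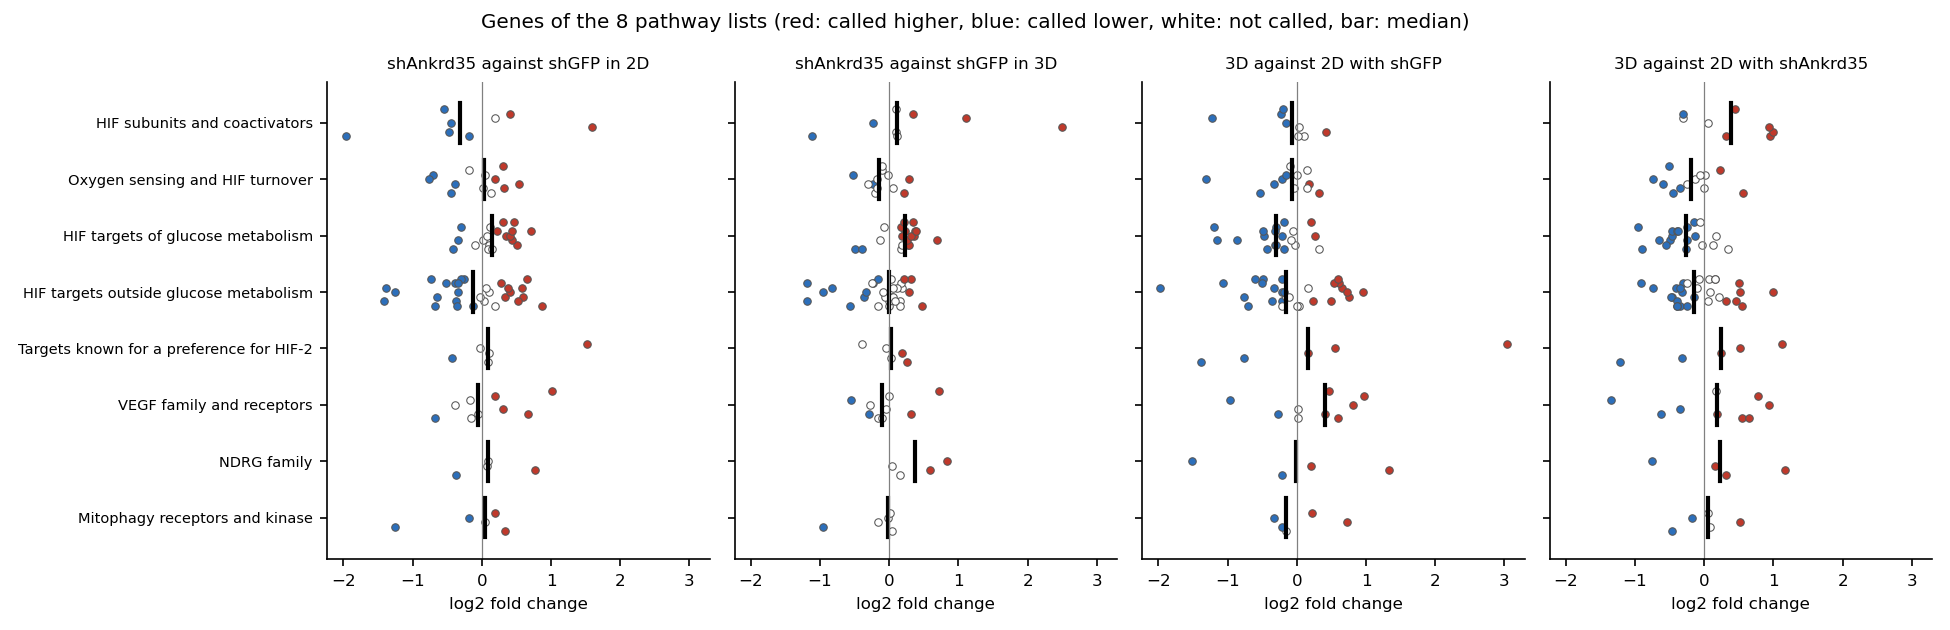
log2 fold change (x axis) of each tested gene of the 8 pathway lists in the 4 pairwise contrasts, coloured by call, with the list median as a bar. Glucose metabolism targets sit to the right between hairpins (medians 0.15 and 0.23) and to the left in 3D against 2D (-0.30 and -0.26).

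Likeness to Epas1 and to Hif1a was measured as the root mean square difference of log2 values over the 16 libraries, each gene centred on its own mean, among 9915 named genes with a mean of at least 5 CPM. Nearest to Epas1 were Fam20a (0.203), Scara5 (0.255), Fmo2 (0.256), Plod2 (0.269) and Chmp1b (0.290). Between hairpins Fam20a differed by -2.02 log2 units for 2D cells and -0.93 for 3D cells, against -1.96 and -1.12 for Epas1. Nearest to Hif1a were Chd1 (0.066), Rab27b (0.079), Slc25a46 (0.082), Homer1 (0.084) and Fpgt (0.085), all with a GC content of 36.9 to 43.2%. Epas1 and Hif1a differed from each other by 0.715 on this measure. Among the 8 genes the least difference from Epas1 was that of Vhl (0.596) and from Hif1a that of Vegfa (0.329).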

How the data were processed

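The members and gene lists were chosen with earlier results of these data known. Named from each list are the 3 genes with the largest called change in a contrast and the paralogs of the members. Reads were trimmed with Trimmomatic 0.38 and aligned to mm10 with STAR 2.5.1b, and edgeR was used, per the submitters' processing notes; for the counting program, the annotation and the strand setting the sources used here give no name. The deposited values are log2 CPM of effective library size with a prior averaging 2 reads, read from the values themselves. Whole reads were recovered from them (100% of values below 2000 reads lay within 0.02 of a whole number), and CPM is recovered reads scaled to the effective library size. Depth was 13.82 to 28.72 M reads. Genes with at least 1 CPM in at least 4 libraries (12320) were tested with limma 3.58.1 in R 4.3.3 (trend and robust moderation, means of the 4 groups over all 16 libraries, 5 contrasts, Benjamini-Hochberg over all genes, threshold 0.05), and the script was tested on simulated data. Ankrd35 did not pass this filter. Symbols were matched to GENCODE M21 for length and GC content (12218 of 12321). Alternatives were other filters, 1 CPM added before the log, centring on library medians, only the compared libraries, a replicate block, limma without trend, removal of each library's trend over GC content and length, and each library left out. Chosen after seeing the data were leaving out both 2D libraries numbered 1, a prior of 0.5 reads, and limma-voom on the recovered reads. Correlations of same-numbered libraries' deviations from their group means ran from -0.483 to 0.206, so the numbers were not taken to pair samples.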

Additional observations from a re-analysis of the deposited data

Results flagged for a closer look

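Among 48 sets of 4 libraries (12 genes in 4 groups), 3 had 1 library apart from the rest by Dixon's ratio at its 95% critical value, which chance gives in about 1 of 20 sets. They were Arnt in 2D shGFP replicate 2 (82.1 CPM, the others 86.8 to 87.5), Vhl in 2D shAnkrd35 replicate 4 (19.1 CPM, the others 21.3 to 21.7) and Hif3a in 3D shAnkrd35 replicate 1 (5.09 CPM, the others 4.00 to 4.14).

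The hairpin effect was called different between 3D and 2D for 29 of the 53 genes checked, by limma's contrast of the 2 effects with adjustment over all genes, where 35.8% of all genes were. Many of the 53 were named for a large called change, this contrast included, so the count reflects that choice and nothing is read from it. For the members, as a description, the 3D effect minus the 2D effect was 0.84 for Epas1, 0.57 for Hif1a, 0.21 for Arnt, 0.53 for Vegfa and 0.51 for Ndrg1. Among other subunits, cofactors and turnover genes it was 0.89 for Hif3a, 0.92 for Arnt2, 0.66 for Crebbp, 0.30 for Ep300, 0.58 for Siah2, -0.78 for Egln3 and -0.50 for Rbx1. Among target genes it was 1.57 for Ero1l, 0.30 for Bnip3l, -0.84 for Stc2, -1.40 for Car12, 0.45 for Tgfa and -1.92 for Angpt2. For the glucose metabolism genes it was 0.67 for Hk2, 0.23 for Pfkp, -0.34 for Pgam1, -0.23 for Tpi1, -0.26 for Ldha and -0.47 for Aldoc. In the VEGF and NDRG families it was -0.36 for Vegfb, -0.36 for Vegfc, -0.38 for Pgf, -0.18 for Ndrg2 and 0.74 for Ndrg4.

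Several of these calls did not hold. With the GC and length trend removed the values of Arnt (0.11), Ep300 (0.08), Bnip3l (0.14), Pfkp (0.00), Pgam1 (-0.15), Tpi1 (-0.08), Ldha (-0.14), Vegfc (-0.32) and Ndrg2 (-0.07) were not called. Centring on library medians ended the calls of Arnt and Ndrg2 (0.20 and -0.20), and the replicate block those of Hif3a, Vegfc and Ndrg2. Leaving out 1 library ended the call of Hif1a for replicates 2, 3 and 4 of 2D shGFP, 2 and 3 of 2D shAnkrd35, 1, 2 and 3 of 3D shGFP, and 2 and 4 of 3D shAnkrd35 (0.46 to 0.57). It ended that of Hif3a for replicates 4 of 2D shGFP, 2, 3 and 4 of 2D shAnkrd35, 1 and 4 of 3D shGFP, and 1 of 3D shAnkrd35 (0.73 to 0.90). Vegfc lost its call without any 1 of 12 libraries, all but replicates 2 of 2D shGFP, 1 of 2D shAnkrd35, 2 of 3D shGFP and 4 of 3D shAnkrd35 (-0.38 to -0.32). Ndrg2 lost it without replicate 2 or 3 of 2D shGFP, 3 of 2D shAnkrd35, 2 of 3D shGFP or 2 of 3D shAnkrd35 (-0.18 to -0.16), and Pgf without replicate 3 of 2D shAnkrd35 (-0.34).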

How the results depend on the processing

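Of 40 member results (8 genes in 5 contrasts) 27 were called, 19 of them under all alternatives run, 8 lost the call under at least 1, and 7 uncalled ones gained it under at least 1. The members were chosen with the values known and the same count was not made over all genes, so nothing is read from it. The counts of called genes, over all genes and over the pathway lists, stayed within 1.5 times the reported ones under all alternatives run. With 1 library left out, the genes called numbered 6301 to 7783 for the hairpin in 2D, 2983 to 4329 in 3D, 7729 to 8649 for 3D against 2D with shGFP, 8173 to 9042 with shAnkrd35, and 3402 to 5749 for the difference of effects (6353 without both 2D libraries numbered 1). Epas1 minus Hif1a stayed within 1 SD of the reported value in each group with 1 CPM added or 1 library left out, but with the GC and length trend removed, an alternative chosen after seeing the data, it moved to -3.27 in 2D shAnkrd35, -1.16 in 3D shGFP and -2.51 in 3D shAnkrd35.

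With the replicate number as a block, 6967 genes were called for the hairpin in 2D, 3448 in 3D, 8156 and 8589 for 3D against 2D, and 4012 for the difference of effects; the numbers share only a label, and among the members the block ended the call of Vhl in 3D against 2D with shGFP (-0.16) and added that of Egln1 for the hairpin in 2D (0.13).

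Among the members and the pathway values called as deposited or given by library, signs turned as follows. Removing the GC and length trend, with or without the replicate block, gave for 3D against 2D with shGFP -0.00 for Hif1a, -0.06 for Plod2, -0.42 for Eloc and -0.00 for Fundc1. With shAnkrd35 it gave -0.03 for Arnt, -0.49 for Bnip3l, -0.02 for Plod2, -0.49 for Eloc, -0.16 for Slc40a1, -0.04 for Ndrg3, -0.45 for Fundc1 and 0.05 for Pink1. For the hairpin in 2D it gave -0.02 for Egln1. Of other values of the named pathway genes, not called as deposited, removing the trend turned and called Slc40a1 for the hairpin in 2D (-0.02 to 0.35), Vegfc and Egln2 in 3D against 2D with shGFP (0.02 to -0.24 and -0.04 to 0.15), and Becn1 and Ldha with shAnkrd35 (0.05 to -0.25 and -0.06 to 0.10). These alternatives remove the trend itself, and what else they remove was not tested. Centring on library medians gave -0.04 for Arnt, -0.08 for Vhl and -0.00 for Bnip3l in 3D against 2D with shAnkrd35, and -0.05 for Vegfa and -0.04 for Hif3a with shGFP. Leaving out 1 library turned values near 0 that were not called: Vhl to between -0.03 and -0.00 in 3D against 2D with shAnkrd35 (-0.02 in between), Vegfa to between -0.02 and -0.00 with shGFP (-0.01 in between), Hif3a to -0.15 or -0.07 with shGFP, and Bnip3 to -0.04 or -0.01 for the hairpin in 3D. The highest values with a library left out were 0.05, 0.08, 0.20 and 0.14 in the same order. The cause was not tested. Depth limits precision most for Hif3a, the least covered gene given by library (0.428 to 5.09 CPM), which has no value under the filter of a mean of at least 5 CPM.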
